A study of Homo sapiens with 18 samples.

Results

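Tight junction transcripts were followed as a list of 34 genes, picked by symbol from the 40266 gene symbols of the expression table, and all 34 were found there. The list held 17 claudins, the 3 MARVEL-domain proteins *OCLN*, *MARVELD2* and *MARVELD3*, and 4 adhesion proteins with immunoglobulin domains, *F11R*, *JAM2*, *JAM3* and *CXADR*. It also held 4 proteins of the cytoplasmic plaque, *TJP1*, *TJP3*, *CGN* and *CGNL1*, and 6 proteins of the polarity complexes, *PARD3*, *PARD6B*, *PATJ*, *PALS1*, *CRB3* and *AMOT*. Of the 34 genes, 28 were among the 16093 genes with a TPM (transcript level scaled to length and library) of 1 or more in 3 or more libraries, and these 28 were tested. Some of them reached 1 TPM only in groups where they were called higher, so that being tested and being called are not independent for them. These were *CLDN6* (Panc1 Holoclone cells), *CGNL1* (the Holoclone cells of each line), *AMOT* (parental and Paraclone cells of Panc1), *JAM3* (Panc1) and *CRB3* and *MARVELD3* (Panc89). *CLDN16* (parental and Holoclone cells of Panc89) and *CLDN9* (Panc1 Holoclone and parental Panc89 cells) were of this kind too. *CLDN10* reached 1 TPM only in Panc1 Holoclone and parental Panc89 cells, in both of which it was called higher, and in parental Panc1 cells. RNA of 2 human pancreatic ductal adenocarcinoma (PDAC) lines had been sequenced in 18 libraries, 3 for each of 6 groups. Panc1 came from a primary tumor and served as the mesenchymal-like model, and Panc89 came from a lymph node metastasis and served as the epithelial model. Each line was present as parental cells, as Holoclone cells, which form closed and tightly clustered colonies, and as Paraclone cells, which form loose ones. Each Holoclone and Paraclone variant was grown up from 1 cell, so it is 1 clone, and the 3 libraries of a group are 3 passages of the same cells. Differences between clones are therefore differences between these clones, and p-values measure the spread between passages.

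Tight junctions close the gap between neighboring epithelial cells below their apical surface. Claudins build the strands of the junction: some, such as CLDN1 and CLDN3, tighten it, and others, such as CLDN2, CLDN10 and CLDN15, form channels for ions or water. Occludin and tricellulin (MARVELD2) join the strands, the ZO proteins (TJP genes) and cingulin tie them to the actin skeleton, and the Par and Crumbs complexes mark the apical side. Transcription factors of epithelial-mesenchymal transition, such as SNAI1 and ZEB1, are known to repress several of these genes, and Grainyhead-like factors are known to activate some.

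The deposited values are log2(TPM + 1) and carry no counts, so the depth behind each value is unknown and no counting interval is given. TPM are scaled to transcript length, so levels are compared between genes as TPM, while differences between groups are given on the log2(TPM + 1) scale, which understates changes at levels around 1 TPM and below. Of 3 mesenchymal markers, *VIM* lay between 2021 and 5044 TPM in Panc1 libraries and at or under 0.456 TPM in Panc89 libraries, whereas *FN1* was called higher in parental Panc89 than parental Panc1 cells (1.91) and *CDH2* was not called (−0.48). Between the Paraclone cells of the lines both *FN1* (3.27) and *CDH2* (0.99) were called higher in Panc89, so these markers did not follow *VIM* there. Of the 3 markers, 2 were called lower and 0 higher in Panc89 between the Holoclone cells, with differences of −11.1, −0.70 and 0.58. Of 6 epithelial markers, *KRT7*, *CDH1*, *EPCAM* and *KRT19* were called higher in parental Panc89 (7.04, 5.05, 3.95 and 1.11), *KRT8* lower (−0.83) and *KRT18* was not called (−0.38). Between the Holoclone cells *KRT8* (−1.71) and *KRT18* (−0.95) were lower in Panc89. *KRT7* lay at or under 19.6 TPM in Panc1 and between 988 and 2773 TPM in Panc89, and *KRT8* and *KRT18* were at or over 378 TPM in every library. In bulk RNA, fewer cells that express a gene and less RNA per cell cannot be told apart.

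Of the 17 claudins, 5 did not reach the level needed for testing. *CLDN2*, a cation channel, *CLDN14* and *CLDN18*, a claudin of the stomach, lay at or under 0.178 TPM in every library. *CLDN5*, known from blood vessels, was listed at 0 in all 9 Panc1 libraries, and in Panc89 it reached 2.39, 0.422 and 3.76 TPM in the Paraclone libraries but 0.254 to 0.440 TPM in the parental and 0.195 to 0.398 TPM in the Holoclone libraries. The 5 endothelial markers examined beside it summed to 55.2 to 69.1 TPM in parental Panc89, 1.15 to 2.31 TPM in Panc89 Holoclone and 2.99 to 8.90 TPM in Panc89 Paraclone cells. Most of the parental sum was *PECAM1*, while *VWF*, *KDR* and *TIE1* did not pass 0.355 TPM in any Panc89 library. *PECAM1* and *CDH5* were the 2 markers tested, and both were called higher in parental Panc89 than parental Panc1 cells (5.86 and 2.19). Both were also called lower in Panc89 Holoclone than in Panc89 Paraclone cells. The part of the 5 markers in the *CLDN5* level was not tested. *CLDN8* was listed at 0 in every Panc1 library and reached 1.76, 0.564 and 2.1 TPM in parental Panc89 cells, against at most 0.575 TPM in the Panc89 clones. *JAM2*, an adhesion protein of the JAM family, was the remaining gene without a test, at 0.0756 to 1.19 TPM over all libraries.

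**Figure D1:**
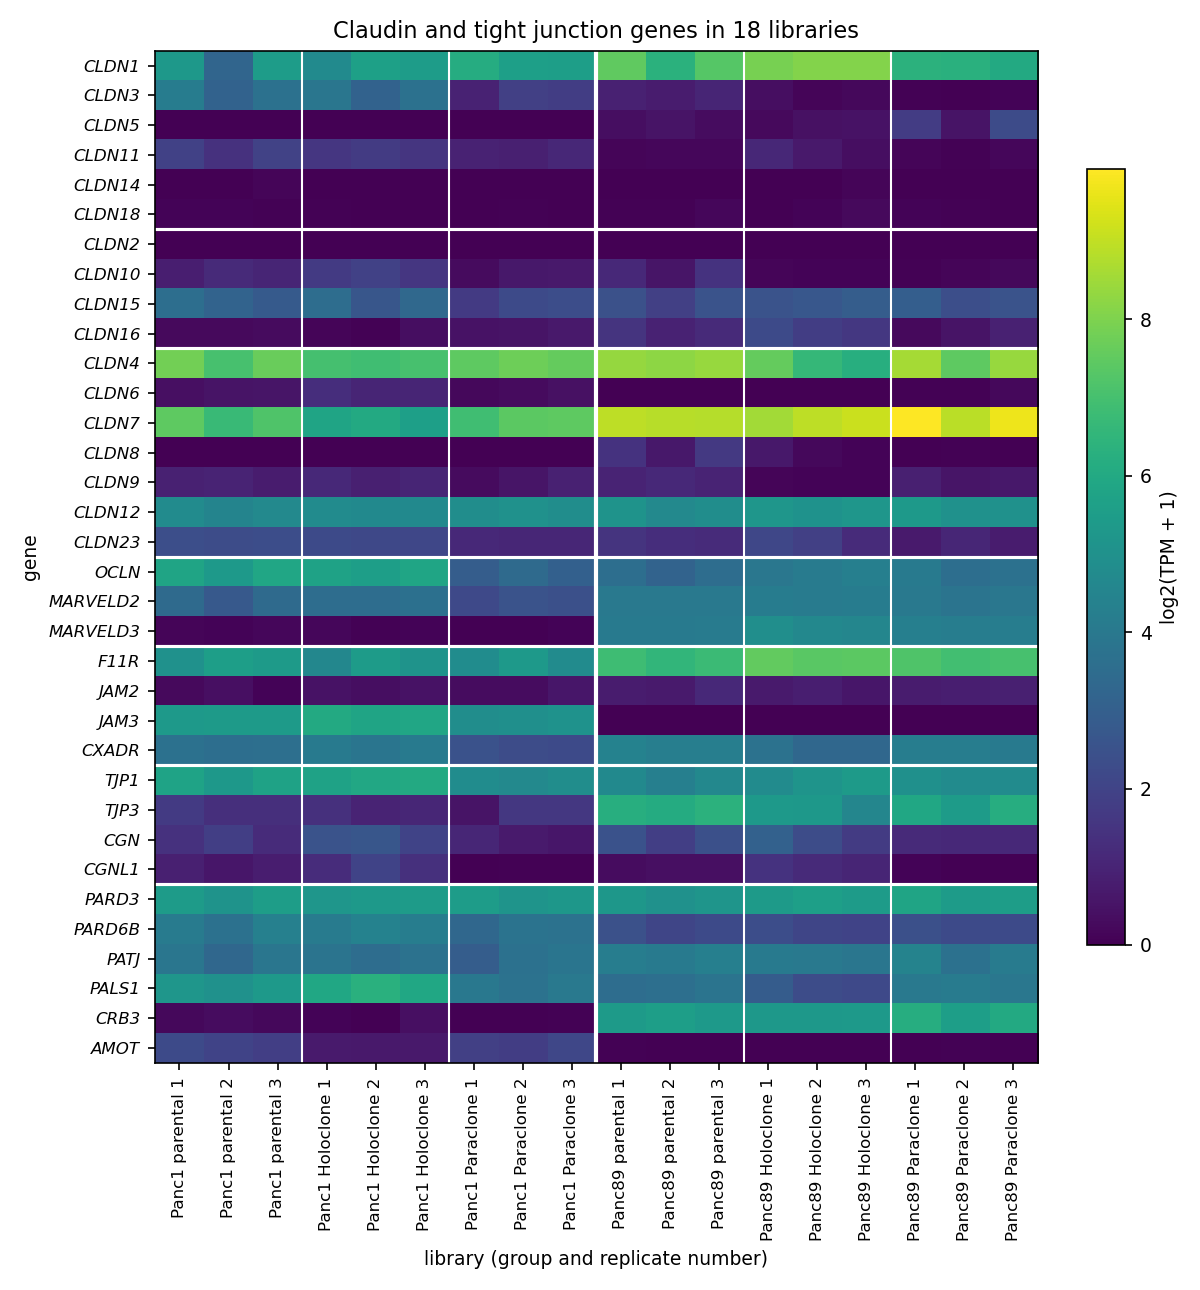
Level of each of the 34 tight junction genes in each of the 18 libraries, as log2(TPM + 1) by color; rows are ordered by role (claudins that tighten, claudins that form channels, other claudins, MARVEL proteins, adhesion proteins, plaque, polarity), and white lines separate roles, groups and lines. *CRB3*, *TJP3* and *MARVELD3* are dark in Panc1 and light in Panc89, *JAM3* shows the opposite, and *CLDN4* and *CLDN7* are the lightest claudin rows in most libraries.

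Claudin transcripts were more abundant in Panc89 than in Panc1, and *CLDN4*, *CLDN7* and *CLDN1* made up most of them. Summed over the 17 claudins, TPM were 286 to 500.2 in parental Panc1, 272 to 278 in its Holoclone and 395 to 471 in its Paraclone cells. In Panc89 the sums were 879 to 1045 in parental, 855 to 951 in Holoclone and 769 to 1489 in Paraclone cells, so the ranges of the lines did not overlap. *CLDN4*, one of the most widely expressed claudins of ducts, took 45.0% ± 0.185 (SD, n = 3) of this sum in parental Panc1, 45.1% ± 3.12 in its Holoclone and 43.7% ± 1.36 in its Paraclone cells. In Panc89 its share was 33.3% ± 1.75 in parental, 13.7% ± 7.82 in Holoclone and 25.1% ± 1.83 in Paraclone cells. *CLDN7*, which is found at the lateral membrane as well as in junctions, took 34.7% ± 1.63 in parental Panc1, 20.3% ± 2.98 in its Holoclone and 34.8% ± 4.82 in its Paraclone cells, and 48.4% ± 3.92, 52.2% ± 7.66 and 64.1% ± 1.93 in parental, Holoclone and Paraclone Panc89 cells. The barrier claudin *CLDN1* took 28.9% ± 1.35 of the sum in Panc89 Holoclone cells, against 14.1% ± 4.29 in parental and 6.89% ± 2.82 in Paraclone Panc89 cells. Shares add up to a whole, so the share of 1 claudin falls where another rises, and they are given as a description.

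**Figure D2:**
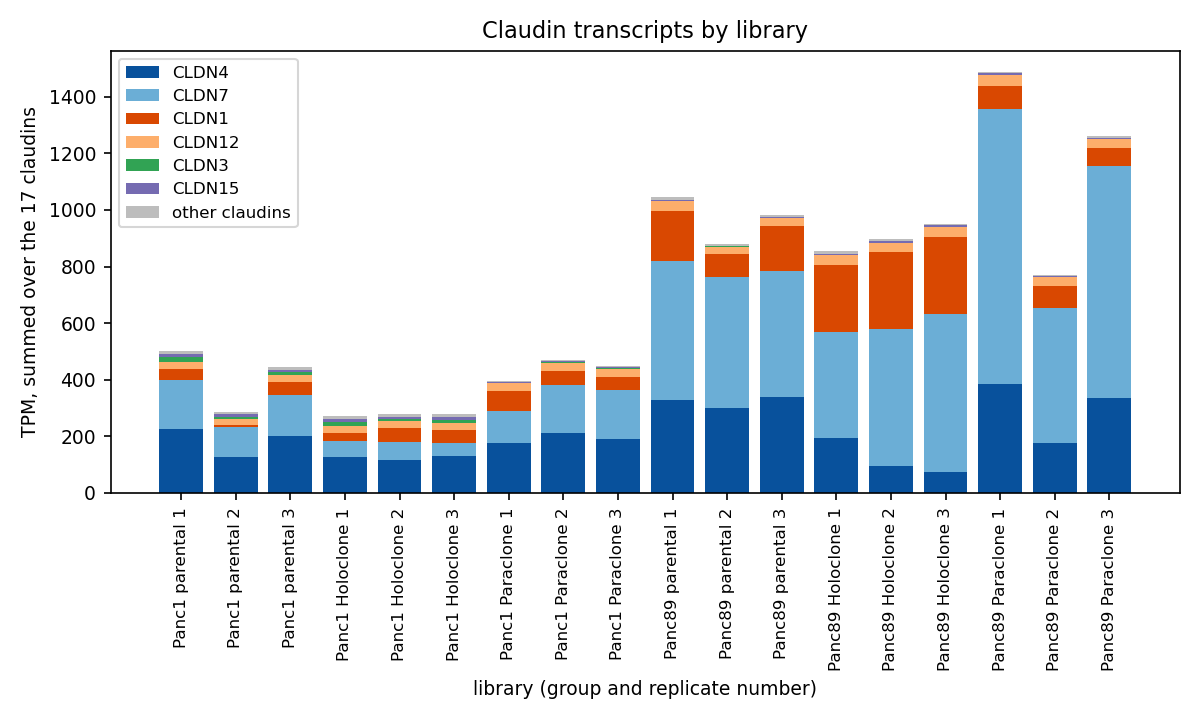
TPM summed over the 17 claudins in each library, stacked by gene, with the 6 most abundant claudins shown singly. Panc1 bars end between 272 and 500.2 TPM and Panc89 bars between 769 and 1489 TPM, *CLDN1* is widest in the 3 Panc89 Holoclone bars, and the second Panc89 Paraclone library is lower than the other two.

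Parental Panc89 and parental Panc1 cells were compared to see how the junction genes differ between the epithelial and the mesenchymal-like model. Of the 28 tested members, 22 differed between the lines (limma, Benjamini-Hochberg adjusted p under 0.05), 11 higher and 11 lower in Panc89, so the epithelial line was not higher throughout. Over all 16093 genes tested, 66% passed the same threshold, 27.5% higher and 38.5% lower in Panc89, against 78.6% of the members. The median difference of the members was 0.11 on the log2(TPM + 1) scale, and that of all tested genes was −0.18. Upper quartile scaling moved the median of all genes to −0.04 and median-of-ratios scaling to 0.02; under either, the 22 members were again called with the same sign. The share of calls that were higher in Panc89, over all genes, was 41.6% as deposited and 51.8% with median-of-ratios scaling.

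The largest differences toward Panc89 were in the polarity gene *CRB3*, the plaque gene *TJP3* and the MARVEL gene *MARVELD3*. *CRB3*, the Crumbs protein that marks the apical membrane, had 41.2, 46 and 40.3 TPM in parental Panc89 and 0.159, 0.264 and 0.161 TPM in parental Panc1 cells. *TJP3* (ZO-3, a scaffold under the junction) had 73.2, 67 and 82.2 TPM in parental Panc89 and 2.23, 1.55 and 1.5 TPM in parental Panc1 cells. *MARVELD3*, which joins occludin in the strands, had 15.9, 16.2 and 16.6 TPM in parental Panc89 and 0.106, 0.0674 and 0.133 TPM in parental Panc1 cells. In Panc1, *CRB3* and *MARVELD3* did not reach 1 TPM in any of the 9 libraries, so these genes were close to the low end of the scale there. The log2 differences were 5.18 (SE 0.15, adjusted p = 1.1e-13) for *CRB3*, 4.77 (SE 0.29, adjusted p = 6.9e-10) for *TJP3* and 3.96 (SE 0.11, adjusted p = 7.5e-14) for *MARVELD3*. On the opposite strand, 1068 exon bases of *MARVELD3* are shared with *PHLPP2*, which lay at or under 6.74 TPM, and reads of such stretches can be separated only where strand was used in counting.

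Among the claudins higher in Panc89, *CLDN1* had 178, 80.8 and 158 TPM in parental Panc89 and 38.3, 8.45 and 44 TPM in parental Panc1 cells. The second parental Panc1 library was the lowest; the difference was 2.37 (SE 0.45, adjusted p = 0.00026) with it and 1.66 without it. *CLDN7* had 493, 464 and 445 TPM in parental Panc89 and 173, 104 and 147 TPM in parental Panc1 cells, without overlap, a difference of 1.75 (SE 0.25, adjusted p = 1.5e-05). *CLDN4* had 327, 301 and 339 TPM against 225, 129 and 201 TPM, also without overlap, and its difference of 0.84 (SE 0.31, adjusted p = 0.027) was no longer past the threshold without the second parental Panc1 library (0.60, adjusted p = 0.13), without parental Panc89 library 1 or 3, or with no filter on low values. The magnesium channel gene *CLDN16* was low in both lines, at 0.910 to 1.80 TPM in parental Panc89 and 0.190 to 0.212 TPM in parental Panc1 cells, and was called at 0.93. *F11R* (JAM-A, an adhesion protein bound by PARD3), *MARVELD2*, *CXADR* and *CGN* were called higher in Panc89 at 1.37, 0.79, 0.66 and 0.76. The call of *CGN* was lost without library 1 or 3 of either parental group and with no filter on low values.

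The largest difference toward Panc1 was in *JAM3* (JAM-C, an adhesion protein also found outside epithelia). It had 40.1, 41.2 and 41.4 TPM in parental Panc1 cells and 0.00679 TPM or less in parental Panc89 cells, and no Panc89 library of any variant passed 0.0123 TPM. The difference was −5.39 (SE 0.10, adjusted p = 1.2e-15), and the neighboring antisense gene *NCAPD3*, which shares 1889 exon bases with *JAM3*, reached up to 56.8 TPM in the table. *CLDN3* had 16.9, 7.77 and 12.2 TPM in parental Panc1 and 0.898, 0.701 and 1.04 TPM in parental Panc89 cells, a difference of −2.76 (SE 0.27, adjusted p = 2.4e-07). *OCLN* (occludin) had 55, 40.2 and 58.2 TPM in parental Panc1 and 11, 7.95 and 10.8 TPM in parental Panc89 cells, a difference of −2.25 (SE 0.18, adjusted p = 2.7e-08). Occludin and CLDN3 are commonly read as epithelial markers, and both were higher in the line used as the mesenchymal-like model. *AMOT* (angiomotin, a partner of PATJ and YAP) had 3.73, 3.03 and 2.6 TPM in parental Panc1 and at most 0.0381 TPM in parental Panc89 cells, a difference of −2.01 (SE 0.12, adjusted p = 7.4e-10). *PARD6B*, a subunit of the Par complex, had 16.4, 11.9 and 19.2 TPM in parental Panc1 and 4.52, 3.2 and 3.7 TPM in parental Panc89 cells, a difference of −1.79 (SE 0.18, adjusted p = 3.2e-07). *CLDN11*, *PALS1* (the Crumbs scaffold), *TJP1* (ZO-1), *CLDN23*, *CLDN15* and *CLDN6* were also called lower in Panc89, at −1.6, −1.52, −1.04, −1.0, −0.89 and −0.50.

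**Figure D3:**
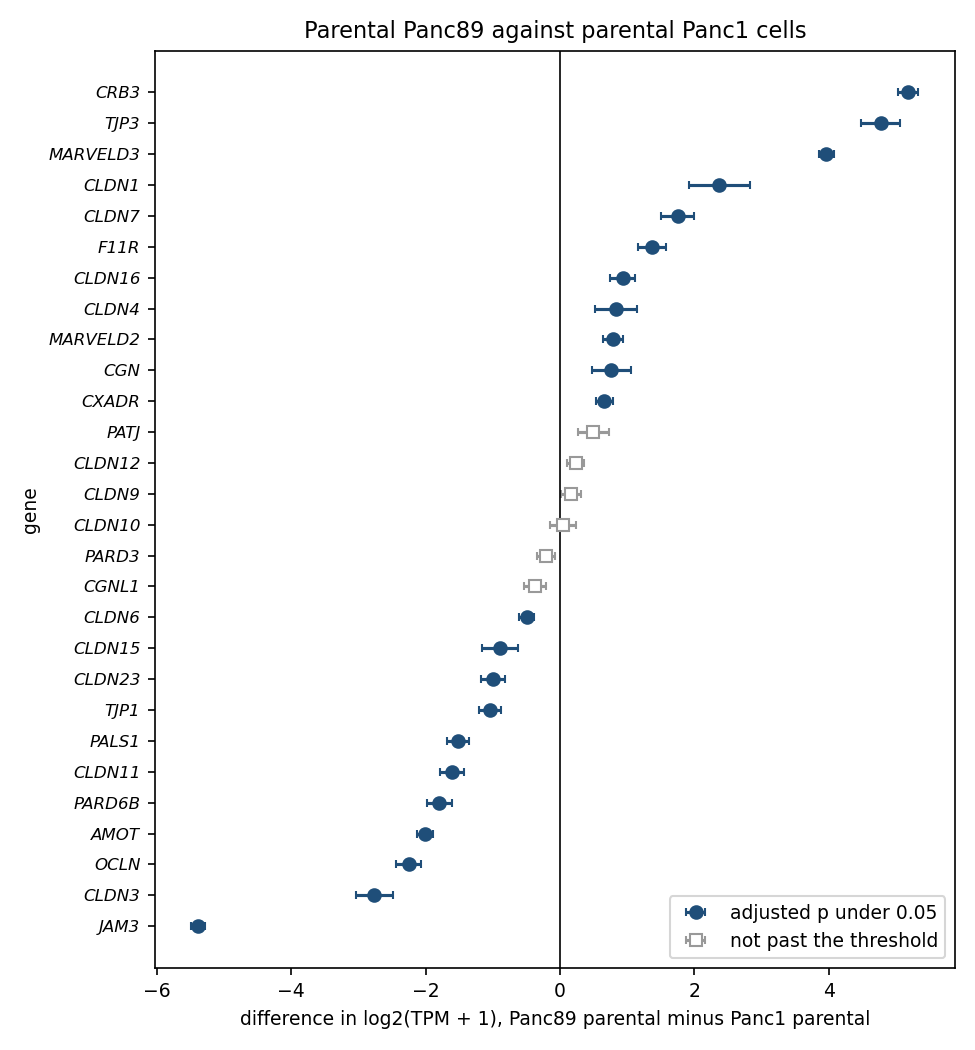
Difference in log2(TPM + 1) between parental Panc89 and parental Panc1 cells for the 28 tested genes (3 libraries a group), with bars of 1 standard error from the fit; filled circles passed an adjusted p of 0.05 and open squares did not. *CRB3* lies at 5.18 and *JAM3* at −5.39, with 11 called genes on each side of 0.

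The same comparison was made between the Holoclone and between the Paraclone cells of the lines, which share no library with the parental comparison. Of the 28 members, 21 were called between the Holoclone cells (background over all genes 65.8%) and 14 between the Paraclone cells (background 60.7%). Called in the same direction in the 3 comparisons were 11 members (39.3%), the same share as over all genes (39.3%). The 6 that were higher in Panc89 each time were *CLDN7*, *MARVELD2*, *MARVELD3*, *TJP3*, *F11R* and *CRB3*, and the 5 that were lower each time were *CLDN3*, *CLDN11*, *JAM3*, *PARD6B* and *AMOT*. Another 2 members were called in the 3 comparisons with a change of sign. *OCLN* was lower in Panc89 among parental cells (−2.25) and Holoclone cells (−1.59) but higher among Paraclone cells (0.65). *CXADR*, the virus receptor and adhesion protein, was higher in Panc89 among parental (0.66) and Paraclone cells (1.81) and lower among Holoclone cells (−0.55).

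Within Panc1, the Holoclone and the Paraclone variant differed in most junction genes, and nearly all of these were higher in the Holoclone cells. Of the 28 members, 18 were called (background 37.3%), 16 higher (background 27.4%) and 2 lower (background 9.97%) in Panc1 Holoclone than in Panc1 Paraclone cells. The median difference of the members was 0.63, against 0.19 for all tested genes. Upper quartile scaling brought the median of all genes to 0.01 and the share of all calls that were higher from 73.3% to 51.3%. Under it, 16 members kept their call with the same sign, *CLDN9* and *PARD6B* lost it, and *CLDN4* and *CLDN12* were called lower in Holoclone cells, which made 14 members higher and 4 lower.

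Of the members, *OCLN* showed the largest difference between the Panc1 clones. *OCLN* had 51.6, 46.5 and 55.6 TPM in Panc1 Holoclone and 6.52, 9.77 and 7.35 TPM in Panc1 Paraclone cells, a difference of 2.57 (SE 0.18, adjusted p = 3.6e-08). *MARVELD2*, which seals the corners where 3 cells meet, had 10.8, 10.8 and 11.6 TPM in Holoclone and 3.58, 4.81 and 4.32 TPM in Paraclone cells, a difference of 1.21 (SE 0.15, adjusted p = 1.9e-05). In both genes every Holoclone library lay above every Paraclone library. *CLDN3* had 13.9, 7.59 and 12.1 TPM in Holoclone and 0.949, 2.72 and 2.53 TPM in Paraclone cells, a difference of 2.01 (SE 0.27, adjusted p = 3.5e-05). *CLDN15*, a channel claudin of the intestine, had 10.6, 5.34 and 9.34 TPM against 2.24, 3.66 and 4.06 TPM (1.11), and *CLDN10*, an ion channel claudin, had 2.19, 2.75 and 2.01 TPM against 0.207, 0.574 and 0.596 TPM (1.19). *CLDN23* had 3.7, 3.4 and 3.33 TPM against 1.21, 1.1 and 1.1 TPM, a difference of 1.07 (SE 0.18, adjusted p = 0.00025). The 3 further claudins called higher in Holoclone cells lay near or under 2 TPM, and these were *CLDN6*, *CLDN11* and *CLDN9*, at 0.80, 0.62 and 0.43. *CLDN6* was tested only because the 3 Holoclone libraries reached 1 TPM. Of these, *CLDN9* was closest to the threshold (0.43, SE 0.15, adjusted p = 0.037), and it lost its call in most of the alternatives tried.

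Several scaffolds and adhesion proteins were also higher in Panc1 Holoclone cells. *PALS1* had 58.7, 78.5 and 58.6 TPM in Panc1 Holoclone and 14.5, 12.5 and 15 TPM in Panc1 Paraclone cells, a difference of 2.13 (SE 0.17, adjusted p = 1.2e-07). *TJP1* had 52.4, 61.7 and 63.4 TPM in Holoclone and 27.2, 24.5 and 28.2 TPM in Paraclone cells, a difference of 1.12 (SE 0.16, adjusted p = 7.4e-05). Neither gene overlapped between the groups. *CGN* (cingulin, which binds ZO proteins and myosin) had 4.79, 5.22 and 3.04 TPM against 1.11, 0.646 and 0.5 TPM (1.6, SE 0.29, adjusted p = 0.00048), and its relative *CGNL1* had 1.42, 3.0 and 1.63 TPM against 0.0241, 0.0427 and 0.0414 TPM (1.5, SE 0.17, adjusted p = 4.9e-06). *CXADR* had 16, 13.7 and 16.2 TPM against 4.68, 3.9 and 3.69 TPM, a difference of 1.68 (SE 0.13, adjusted p = 8.7e-08). *JAM3* had 65, 54.9 and 57.7 TPM against 27.9, 29.5 and 32.6 TPM (0.96) and *PARD6B* 16.5, 20.1 and 17.2 TPM against 8.89, 12.7 and 12.4 TPM (0.63). Both groups of *PARD6B* lay close together, and its call was lost under both other scalings.

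Only *CLDN7* and *AMOT* were called lower in Panc1 Holoclone than in Panc1 Paraclone cells under the fit to all 18 libraries. *CLDN7* had 55.2, 64.7 and 47.9 TPM in Holoclone and 116, 171 and 174 TPM in Paraclone cells, a difference of −1.43 (SE 0.25, adjusted p = 0.00036). *AMOT* had 0.641, 0.622 and 0.619 TPM in Holoclone and 2.69, 2.5 and 3.36 TPM in Paraclone cells, a difference of −1.24 (SE 0.12, adjusted p = 1.3e-06). *CLDN4* was also lower in every Holoclone library, at 129, 116 and 129 TPM against 175, 211 and 189 TPM, but its difference of −0.62 (SE 0.31, adjusted p = 0.14) did not pass the threshold. *CLDN4* and *CLDN7* were the 2 most abundant claudins of Panc1 Holoclone cells, and the 7 other claudins that were called were all higher there. The remaining 9 members (*CLDN1*, *CLDN12*, *CLDN16*, *MARVELD3*, *F11R*, *TJP3*, *PARD3*, *PATJ* and *CRB3*) had differences between −0.47 and 0.22 and were not called.

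**Figure D4:**
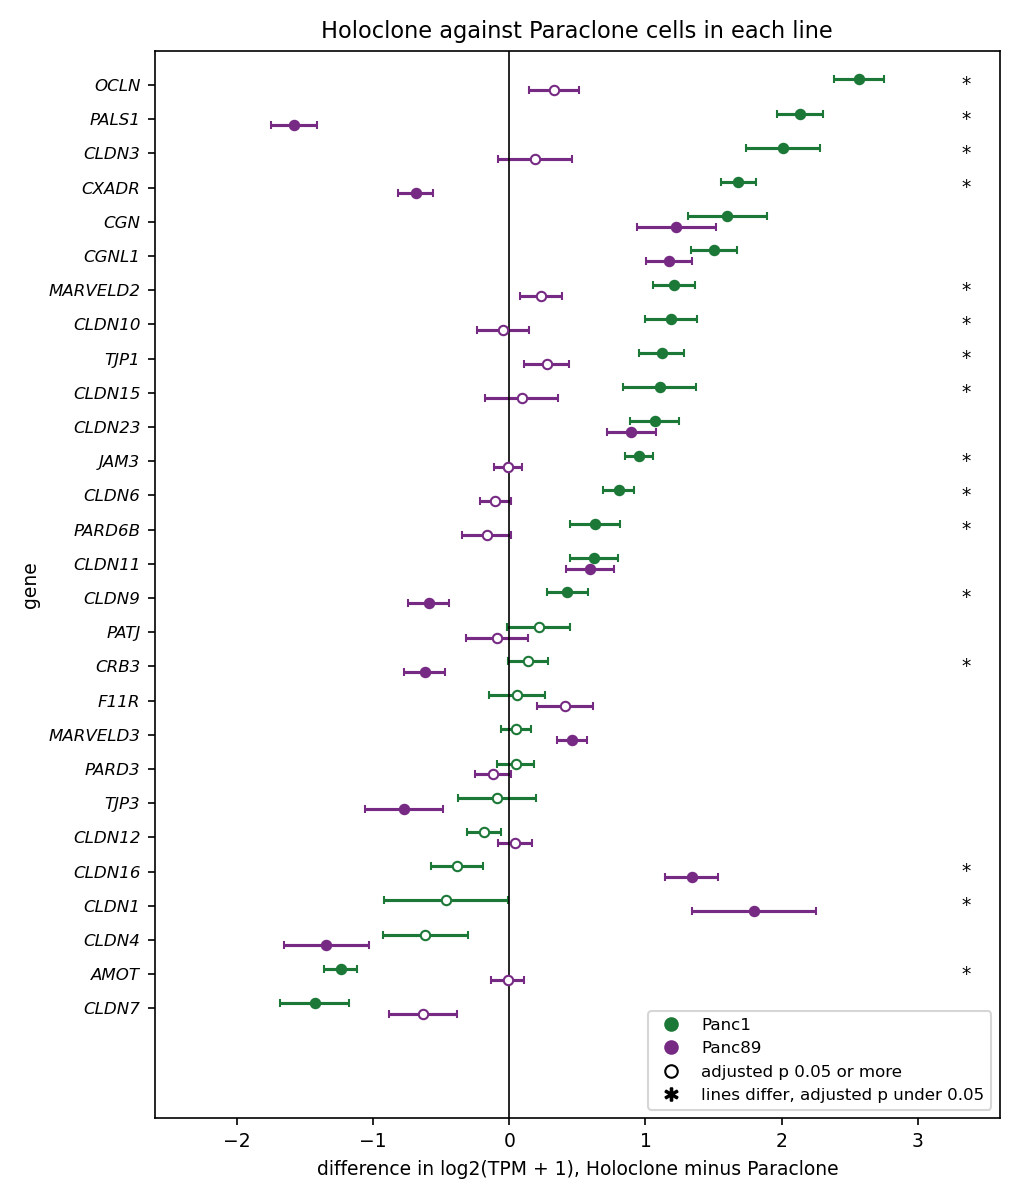
Difference in log2(TPM + 1) between Holoclone and Paraclone cells of each line for the 28 tested genes (3 libraries a group), with bars of 1 standard error; filled points passed an adjusted p of 0.05, open points did not, and a star marks genes whose difference itself differed between the lines. *OCLN* lies at 2.57 in Panc1 and 0.33 in Panc89, and *PALS1* at 2.13 in Panc1 and −1.58 in Panc89.

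Within Panc89, fewer members separated the clones, and they did so in both directions. Of the 28 members, 13 were called (background 35.7%), 7 higher (background 22.4%) and 6 lower (background 13.3%) in Panc89 Holoclone than in Panc89 Paraclone cells. The median difference was 0.02 for the members and 0.09 for all tested genes, and the share of all calls that were higher went from 62.8% to 52.5% under upper quartile scaling, which kept all 13 calls. With only the 6 libraries of this comparison in the fit, 7 members were called, 6 of them from the 13 (*CGNL1*, *CLDN1*, *CLDN9*, *CLDN16*, *CXADR* and *PALS1*). The other 7 (*CGN*, *CLDN4*, *CLDN11*, *CLDN23*, *CRB3*, *MARVELD3* and *TJP3*) rest on the spread shared over all 18 libraries.

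*CLDN1* had 238, 272 and 270.3 TPM in Panc89 Holoclone and 81.5, 77.8 and 63.8 TPM in Panc89 Paraclone cells, a difference of 1.8 (SE 0.45, adjusted p = 0.0058). Its chromosomal neighbor *CLDN16* had 3.68, 2.52 and 2.09 TPM in Holoclone and 0.182, 0.42 and 0.875 TPM in Paraclone cells, a difference of 1.34 (SE 0.19, adjusted p = 6e-05). In both genes every Holoclone library was above every Paraclone library. *CGN* had 7.53, 3.93 and 2.34 TPM against 1.25, 1.22 and 1.2 TPM (1.23, SE 0.29, adjusted p = 0.0038) and *CGNL1* 1.73, 1.29 and 1.06 TPM against 0.0756, 0.0242 and 0.0226 TPM (1.17, SE 0.17, adjusted p = 5.8e-05). *CLDN23* had 3.36, 2.66 and 1.36 TPM against 0.657, 1.09 and 0.686 TPM (0.90, SE 0.18, adjusted p = 0.0011), with Holoclone library 3 close to the Paraclone range. *CLDN11*, known from myelin and testis, and *MARVELD3* were called higher by smaller amounts, 0.60 and 0.46.

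*PALS1* was lower in Panc89 Holoclone cells, with 6.32, 3.92 and 3.61 TPM against 15.3, 16.7 and 14.3 TPM in Paraclone cells, a difference of −1.58 (SE 0.17, adjusted p = 3.4e-06). *CXADR* was lower too, with 12.5, 9.08 and 9.01 TPM against 17.2, 17.3 and 16 TPM (−0.69, SE 0.13, adjusted p = 0.00067). *CLDN4* had 193, 95.9 and 74.3 TPM in Holoclone and 385, 177 and 334 TPM in Paraclone cells, a difference of −1.34 (SE 0.31, adjusted p = 0.0033). The groups of *CLDN4* overlapped, because the first Holoclone library was above the second Paraclone library. *TJP3* (−0.77), *CRB3* (−0.62) and *CLDN9* (−0.59) were called lower as well, and *TJP3* lost its call in most of the alternatives tried. *CLDN7* had 374, 484 and 559 TPM in Holoclone and 972, 475 and 820.4 TPM in Paraclone cells and was not called (−0.63, SE 0.25, adjusted p = 0.061). Without the second Paraclone library, which was the lowest of its group in *CLDN4*, *CLDN7* and the claudin sum, *CLDN7* was called lower in Holoclone cells.

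**Figure D5:**
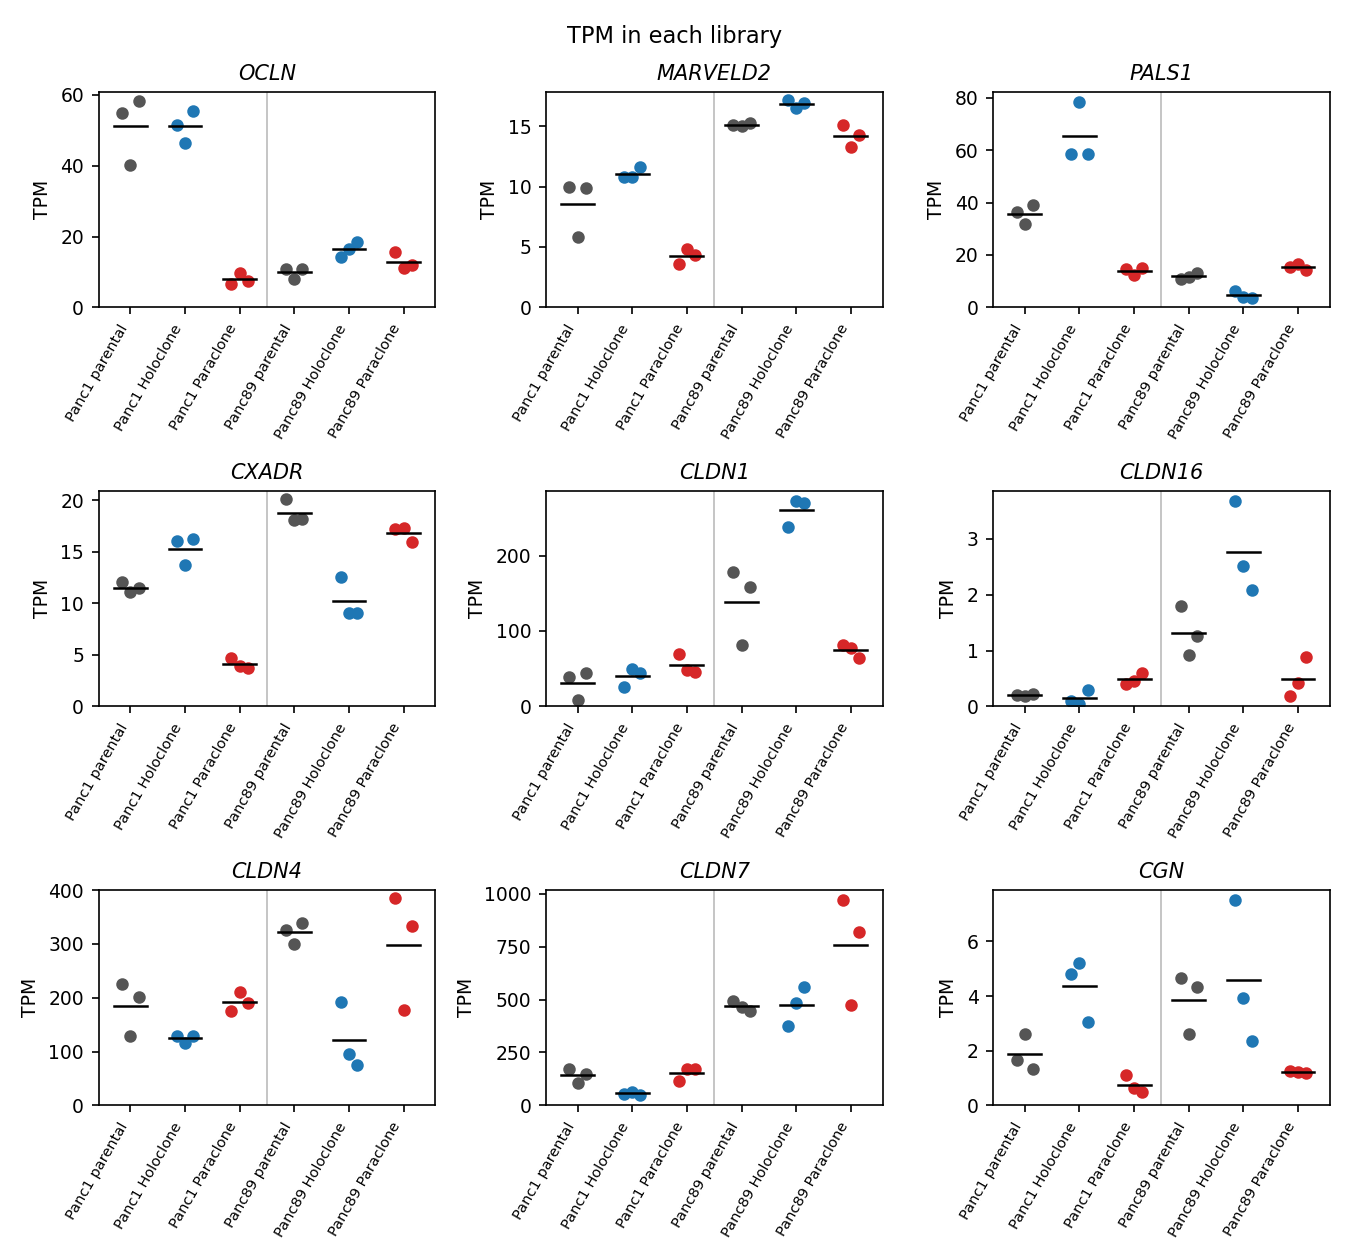
TPM of 9 tight junction genes in each of the 18 libraries on linear axes from 0, with gray points for parental, blue for Holoclone and red for Paraclone cells, and a black line at the mean of the 3 libraries. *OCLN*, *MARVELD2* and *PALS1* drop in Panc1 Paraclone cells, *CLDN1* and *CLDN16* peak in Panc89 Holoclone cells, and the *CLDN4* groups overlap in Panc89.

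Whether the step from Paraclone to Holoclone cells differed between the lines was tested as the difference of the 2 differences. Of the 28 members, 16 were called (background 35.1%), 3 with a more positive change in Panc89 (background 14.8%) and 13 with a more negative one (background 20.4%). The median over the members was −0.70, and over all tested genes −0.11. The largest was *PALS1* at −3.71 (SE 0.24, adjusted p = 1.8e-08), which was higher in the Holoclone cells of Panc1 and lower in those of Panc89. *CXADR* at −2.37 (SE 0.18, adjusted p = 1.2e-07) and *CLDN9* at −1.02 (SE 0.21, adjusted p = 0.0017) also had called changes of opposite sign in the lines. The call of *CLDN9* between the Panc1 clones was lost in most of the alternatives tried. For *OCLN* (−2.24), *CLDN3* (−1.82), *CLDN10* (−1.24), *MARVELD2* (−0.98), *JAM3* (−0.96), *CLDN6* (−0.90) and *TJP1* (−0.84) the change was called in Panc1 and not in Panc89. Of these, *CLDN3*, *CLDN10* and *CLDN6* lay at or under 0.294 TPM in every library of the Panc89 clones, where log2(TPM + 1) compresses any change. *CLDN3* averaged 11.2 and 2.07 TPM in Panc1 Holoclone and Paraclone cells and 0.182 and 0.0324 TPM in those of Panc89, the same direction in each line, and with a pseudocount of 0.1 its difference between lines was not called (−1.41, adjusted p = 0.07). *CLDN1* (2.26) and *CLDN16* (1.72) had the opposite pattern, a change called in Panc89 and not in Panc1. *CLDN16* lay at or under 0.592 TPM in every Panc1 library, with means of 0.141 TPM in Holoclone and 0.482 TPM in Paraclone cells. Between the Panc1 clones it was called with a pseudocount of 0.1 and with only the groups compared in the fit. *CLDN15* and *PARD6B* were called at −1.01 and −0.80, and both lost the call under either other scaling, *CLDN15* also with a pseudocount of 0.1. *TJP1* lost its difference between lines under median-of-ratios scaling. *AMOT* (1.23) had a called change in Panc1, and *JAM3* and *AMOT* lay at or under 0.0381 TPM in every Panc89 library. *CRB3* (−0.76) had a called change in Panc89, and it lay at or under 0.331 TPM in every Panc1 library. With a pseudocount of 0.1 *CRB3* lost both its difference between lines (adjusted p = 0.069) and its call between the Panc89 clones (adjusted p = 0.21). *CGN*, *CGNL1*, *CLDN11* and *CLDN23* were called higher in Holoclone than in Paraclone cells of each line, and for these the lines differed by −0.37 (SE 0.41, adjusted p = 0.52), −0.33 (SE 0.24, adjusted p = 0.31), −0.025 (SE 0.25, adjusted p = 0.95) and −0.17 (SE 0.25, adjusted p = 0.65). *CLDN11* lost its call between the Panc1 clones under median-of-ratios scaling, and between the Panc89 clones without Holoclone library 1.

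Each clone was also set against the parental cells of its line, and the comparisons within a line share the 3 parental libraries. In Panc1 Paraclone cells, 11 members differed from parental Panc1 cells (background 28.6%), and the 11 were lower (background 21.3%). The share of all calls that were higher in Paraclone cells went from 25.6% to 47.4% under upper quartile scaling, under which *JAM3* lost its call and *CLDN12* was called higher. In Panc1 Holoclone cells, 7 members differed from parental cells (background 10.9%), 5 higher and 2 lower. *OCLN* differed from parental cells by −2.55 (SE 0.18, adjusted p = 5.5e-08) in Paraclone cells and by 0.016 (SE 0.18, adjusted p = 1) in Holoclone cells. *CLDN3* differed by −2.11 in Paraclone and −0.10 in Holoclone cells, *CXADR* by −1.3 and 0.38, and *TJP1* by −0.80 and 0.32. Of these 6 differences, the 3 in Paraclone cells passed the threshold. *CLDN7* and *AMOT* moved in Holoclone cells, by −1.3 and −1.33, and had differences of 0.13 and −0.094 in Paraclone cells, which were not called. *PALS1* and *CGNL1* were called on both sides, at 0.84 and 0.80 in Holoclone and −1.29 and −0.70 in Paraclone cells.

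In Panc89 Holoclone cells, 13 members differed from parental Panc89 cells (background 24.7%), 7 higher and 6 lower, and in Panc89 Paraclone cells 6 did (background 19.4%), 2 higher and 4 lower. *CLDN4* (−1.52, SE 0.31, adjusted p = 0.002), *PALS1* (−1.22, SE 0.17, adjusted p = 7e-05) and *TJP3* (−1.16, SE 0.29, adjusted p = 0.0075) were lower in Holoclone than in parental cells. *CLDN1* was at 178, 80.8 and 158 TPM in parental cells, below the Holoclone libraries and overlapping the Paraclone libraries at its lowest value, and neither clone was called against it (0.98 and −0.82). *CLDN10* fell below parental cells in both clones, from 1.2, 0.49 and 1.77 TPM to at most 0.0912 TPM in Holoclone and 0.169 TPM in Paraclone cells, with differences of −0.97 and −0.92. *CGN* was lower in Paraclone cells (−1.11, SE 0.29, adjusted p = 0.014). Without the second parental library the Holoclone count was 8. The Paraclone count was 2 without the first parental library, 1 without parental library 3, 2 without the first Paraclone library and 3 without Paraclone library 3, so both counts rest on single libraries. The share of all calls that were higher in Holoclone than parental cells was 65.2% as deposited and 51.3% with upper quartile scaling, under which *OCLN* and *TJP1* lost their calls.

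By mean TPM, the order of the members differed between groups. In Panc1 Holoclone cells *CLDN4* led with a mean of 124 TPM, followed by *PALS1*, *JAM3*, *TJP1*, *CLDN7* and *OCLN* at means of 65.3, 59.2, 59.2, 55.9 and 51.2 TPM. These 5 genes lay within 46.5 to 78.5 TPM over the 3 libraries, and their neighbors in this order overlapped. In Panc89 Holoclone cells *CLDN7* led with a mean of 473 TPM, ahead of *CLDN1* (260.1 TPM), *F11R* (174 TPM) and *CLDN4* (121 TPM). The libraries of *CLDN7* and *CLDN1* did not overlap there, nor did those of *CLDN1* and *F11R*. *PARD3* (31.4 to 55.2 TPM) and *CLDN12* (21.1 to 39.5 TPM) were the members with the narrowest range over the 18 libraries among those above 20 TPM. *PATJ*, a Crumbs scaffold, lay at 6.54 to 13.9 TPM in Panc1 and 12.1 to 20.7 TPM in Panc89 libraries, and *F11R* at 23.0 to 46.6 TPM and 90.4 to 185 TPM. *CLDN11* lay at 0.810 to 2.84 TPM in Panc1 and 0.0326 to 1.14 TPM in Panc89, *CLDN6* at 0.167 to 1.43 TPM and 0 to 0.167 TPM, and *CLDN9* at 0.218 to 1.24 TPM and 0.0561 to 1.18 TPM. With the values as deposited, *CLDN12* was called between the Holoclone cells of the lines and in no other comparison, and with the other scalings it was also called between the parental lines, between the Panc1 clones and in Panc1 Paraclone against parental cells. Exons of *CLDN10* share 1558 bases with *DZIP1* on the opposite strand. Those of *CLDN12* share 347 bases with *GTPBP10* and 531 with *PTTG1IP2* (0 TPM throughout) on the same strand. *F11R*, *CLDN11* and *CLDN7* share 1853, 683 and 269 exon bases with protein-coding genes without a symbol, also on the same strand. The values of these members are uncertain to that extent.

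Positions from GENCODE 44 on GRCh38 place 8 members in 4 neighboring pairs with no other protein-coding gene between them. *CLDN1* (chr3:190305707-190322446, minus strand) and *CLDN16* (chr3:190322541-190412138, plus strand) are 94 bases apart. Both were higher in Holoclone than Paraclone cells of Panc89 and not called in Panc1, where *CLDN16* was called under some alternatives. *MARVELD2* (chr5:69415065-69444330) and *OCLN* (chr5:69492292-69558104) are 47961 bases apart, and both were lower in the Paraclone cells of Panc1. *CLDN9* and *CLDN6* on chromosome 16 are 206 bases apart, and both had a more negative clone change in Panc89 than in Panc1. *CLDN3* (chr7:73768997-73770270) and *CLDN4* (chr7:73799542-73832690) are 29271 bases apart, and between the Panc1 clones *CLDN3* was called at 2.01 while *CLDN4* was not called at −0.62. Of the 10 tested genes nearest to *OCLN* that are no members, 2 were called higher and 1 lower between the Panc1 clones, with a median of 0.12. Around *PALS1* (chr14:67240713-67336061), 7 of the 10 nearest were called higher in Panc1 Holoclone cells and 0 lower, with a median of 0.64, against 27.4% higher and 9.97% lower over all genes. This was the highest count among the genes examined in this way. Around *CLDN1*, *CLDN3*, *CLDN6*, *JAM3* and *CXADR*, 2 or 3 of the 10 nearest were higher and 0 to 2 lower. Between the Panc89 clones, where *PALS1* was lower in Holoclone cells, 1 of its 10 nearest was higher and 3 lower, with a median of 0.01.

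Other genes of the pathway, taken from a list of 38 tight junction and polarity genes outside the members, were set beside them. Of the 33 tested, 26 were called between the parental lines (14 higher and 12 lower in Panc89; 78.8%, against 66% of all genes), 21 between the Panc1 clones (19 higher and 2 lower in Holoclone cells; 63.6%, against 37.3%) and 17 between the Panc89 clones (7 higher and 10 lower; 51.5%, against 35.7%). Most calls of the list between the Panc1 clones were higher in Holoclone cells, as were 73.3% of the calls over all genes, a share that was 51.3% under upper quartile scaling. *LSR* (angulin-1, which recruits tricellulin to corners) had 83.5, 105 and 106 TPM in Panc1 Holoclone and 10.9, 8.13 and 6.51 TPM in Panc1 Paraclone cells, a difference of 3.4. *EPCAM*, which binds CLDN7, had 29, 27.2 and 31.5 TPM against 1.28, 1.61 and 2.3 TPM (3.48), and *AMOTL1*, a relative of *AMOT*, had 5.14, 6.37 and 5.0 TPM against 0.068, 0.123 and 0.0604 TPM (2.58). *AMOTL1* thus moved against *AMOT*, and it was also higher in Panc89 Holoclone than Paraclone cells (1.4). *MICALL2* and *RAB13*, which carry occludin to the membrane, were the 2 called lower in Panc1 Holoclone cells (−1.16 and −0.49). In Panc89 *PARD6G* (0.93) and *DLG1* (0.85) were higher and *LLGL2* (−1.08), *ARHGEF18* (−0.89) and *AMOTL2* (−0.84) lower in Holoclone cells. Between the parental lines *EPCAM* (3.95) and *LSR* (2.73) were among the genes called higher in Panc89, and *BVES* (−3.06), *LLGL1* (−2.78) and *PARD6A* (−2.17) were lowest. Of 9 adherens junction genes, 8 were called between the parental lines, 2 lower in Panc89 and 6 higher, led by *CDH1* (5.05), *NECTIN4* (4.23) and *NECTIN1* (3.57). Between the Panc1 clones 5 were called, 3 higher and 2 lower in Holoclone cells, and the list ranged from −1.05 to 1.89. Between the Panc89 clones 3 were called, 2 higher and 1 lower, and the list ranged from −0.44 to 2.60. The calls made up 88.9%, 55.6% and 33.3% of the list, against 66%, 37.3% and 35.7% of all genes. The share between the Panc89 clones was thus below that of all genes.

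The transcription factors known to act on junction genes were examined beside the members, without a test of any link. Of the repressors, *ZEB1* had 12.7 to 18.1 TPM in Panc1 and 0.0294 to 3.00 TPM in Panc89 libraries (−4.11 between the parental lines). It did not pass the threshold between the Panc1 clones (0.23) but did between the Panc89 clones. There the 4 tested repressors, *ZEB1*, *ZEB2*, *SNAI1* and *SNAI2*, were called, 3 lower and 1 higher in Holoclone cells (−2.5 to 0.79). *SNAI1* was lower in Holoclone than in Paraclone cells of each line (−1.29 in Panc1 and −2.5 in Panc89), *SNAI2* was above 1 TPM only in Panc89 (3.32 between the parental lines), *ZEB2* was called at 0.50 between the Panc1 clones and −0.96 between the Panc89 clones, and *TWIST1* was listed at 0 throughout. Of the other factors examined, *GRHL2* (4.74), *OVOL1* (4.25), *OVOL2* (3.0) and *ELF3* (5.28) were higher in parental Panc89 than parental Panc1 cells. *GRHL3* was lower there (−1.69), and *GRHL1* was not called (−0.24). *GRHL2* lay at or under 0.391 TPM in every Panc1 library, and in Panc89 it was higher in Holoclone than in Paraclone cells (1.79), as was *GRHL3* (0.96), while *OVOL1* (−0.57) and *OVOL2* (−1.91) were lower. Between the Panc1 clones *ELF3* was lower (−3.57) and *GRHL1* (0.69) and *OVOL2* (0.50) were higher in Holoclone cells.

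The 250 bases before each RefSeq start of the members (GRCh38.p14) were searched for 2 motifs on both strands. These were the E-box bound by SNAI and ZEB proteins, CAGGTG, and a Grainyhead-like motif, AACNGGTT. Of the 34 members, 23 had a start in the sequence table. The E-box was found before a start of 8 of them (*CLDN7*, *CLDN14*, *CLDN18*, *CRB3*, *OCLN*, *PATJ*, *TJP1* and *TJP3*), or 9 of their 36 starts, and before 17.5% of all 35116 starts. The Grainyhead-like motif was found before 1 start of the members, that of *CGN*, and before 1.49% of all starts. The matches are shown with 30 bases each, read in the direction of the gene, with the motif in capitals; *CLDN7* and *OCLN* have 2 starts each, of which 1 of *CLDN7* and both of *OCLN* had matches, and the site of 1 *OCLN* start is shown. The genes and sites shown were chosen after the matches were seen, to set matches beside genes that were higher in Panc89 (*CRB3*, *CLDN7*, *CGN*) and in Panc1 (*OCLN*) among parental cells.
CRB3, 228 bases before the start, chr19:6464031-6464060, plus strand: atgctcgcaatgCAGGTGtaaggtccccct
CRB3, 147 bases before the start, chr19:6464112-6464141, plus strand: ggggtcccgttaCAGGTGcgcccacagcgc
CRB3, 60 bases before the start, chr19:6464199-6464228, plus strand: agtgcgctctccCAGGTGagtgactaaact
CLDN7, 135 bases before the start, chr17:7262596-7262625, minus strand: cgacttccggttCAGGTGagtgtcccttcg
CLDN7, 20 bases before the start, chr17:7262481-7262510, minus strand: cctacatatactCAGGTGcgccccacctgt
OCLN, 33 bases before the start, chr5:69492502-69492531, plus strand: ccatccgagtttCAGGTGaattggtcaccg
CGN, 27 bases before the start, chr1:151511349-151511378, plus strand: cgcagcggagtAACAGGTTggtgggaggga

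*CRB3* held 5 E-box matches in its window and *CLDN7* 4, of which 3 and 2 are shown, and both genes were lower in parental Panc1 than in parental Panc89 cells. *OCLN* held 1 match and was higher in parental Panc1 cells. Of the other members with a start that were called higher in parental Panc89 cells, *TJP3* had an E-box match. *CLDN1*, *CLDN4*, *CLDN16*, *MARVELD2* and *CGN* had none. Of those called lower, *TJP1* had a match, and *CLDN3*, *CLDN6*, *CLDN11*, *CLDN15*, *PALS1* and *AMOT* had none. Members with and without a match were thus found on both sides. In GENCODE 44 each gene whose sites are shown begins before its window, so the windows lie inside the annotated genes. Of the 250 bases, 193 of *CRB3* and all 250 of *CLDN7* and *OCLN* lie in an annotated exon of the same gene, while those of *CGN* lie in none. The matches are letters in these windows only, and binding was not measured.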

How the data were processed

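RNA of 18 libraries, 3 passages of each of 6 cell variants, was sequenced by the authors after a stranded mRNA library preparation. Per the labels and the study's methods, transcripts were quantified with kallisto 0.46.1 against GRCh38 and summed to scaled TPM with tximport, and the deposited table holds log2(TPM + 1) for 40266 symbols. Whether strand was used in quantification is not given in the sources used here. TPM keep no depth, and each library's TPM summed to 985339 to 988066.

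Values were used as deposited. A linear model with 1 mean per group over the 18 libraries was fitted with limma 3.58.1 (moderated statistics with a mean trend, R 4.3.3) to genes that reached 1 TPM in 3 or more libraries, and p-values were adjusted by Benjamini-Hochberg over 16093 genes for each of 10 comparisons, with a threshold of 0.05. The pseudocount was 1. SE are from this fit. The script was tested on simulated data.

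Members and lists were chosen with earlier results of these data known. The value in every library is given for members called between Holoclone and Paraclone cells of a line with a log2 difference of at least 1, and for the 5 highest and 5 lowest between parental cells. Genes outside the members are named if called among the 3 highest or 3 lowest of their list, and transcription factors always; a gene that this rule names is not reported here. Positions and exon overlaps came from GENCODE 44 and sequences from RefSeq (GRCh38.p14). Alternatives changed the pseudocount, filter, scaling, threshold, variance model, libraries in the fit and replicate block, and left out each replicate.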

Additional observations from a re-analysis of the deposited data

Results flagged for a closer look

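The change between Holoclone and Paraclone cells differed between Panc89 and Panc1 in 16 of the 28 tested members, by the test of the difference of the log2 differences (limma, Benjamini-Hochberg over all genes tested). The value is the change in Panc89 minus that in Panc1. It was more negative for *PALS1* (−3.71), *CXADR* (−2.37), *OCLN* (−2.24), *CLDN3* (−1.82), *CLDN10* (−1.24), *CLDN9* (−1.02), *CLDN15* (−1.01), *MARVELD2* (−0.98), *JAM3* (−0.96), *CLDN6* (−0.90), *TJP1* (−0.84), *PARD6B* (−0.80) and *CRB3* (−0.76). It was more positive for *CLDN1* (2.26), *CLDN16* (1.72) and *AMOT* (1.23). With a pseudocount of 0.1, which weighs low values more, *CLDN3*, *CLDN15* and *CRB3* were not called, and *CLDN15* and *PARD6B* lost their calls under either other scaling. *TJP1* lost its call under median-of-ratios scaling. *CLDN3*, *CLDN6* and *CLDN10* lay at or under 0.294 TPM in every library of the Panc89 clones. In Panc1, *CRB3* lay at or under 0.331 TPM and *CLDN16* at or under 0.592 TPM. *JAM3* and *AMOT* lay at or under 0.0381 TPM in every Panc89 library. For these genes log2(TPM + 1) compresses any change in the line with the low levels. The value then mostly gives the change in the other line. Each line is represented by 1 Holoclone and 1 Paraclone clone, so a difference between lines and a difference between these clones cannot be told apart.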

How the results depend on the processing

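No called member changed sign under any alternative tried. Counts of called members that moved by more than 1.5 times were as follows. A filter of 5 TPM gave 10 between the Panc1 clones and 7 between the Panc89 clones, 3 and 8 for Panc1 and Panc89 Holoclone against parental cells, and 3 for Panc89 Paraclone against parental cells; it tests fewer members. Fitting only the groups compared gave 7 between the Panc89 clones and 3 for Panc89 Paraclone against parental cells. Requiring an absolute log2 difference over 1 gave 6 between the Panc89 clones, 10 for the difference between lines, 2 and 6 for Panc1 Holoclone and Paraclone, and 3 and 1 for Panc89 Holoclone and Paraclone against parental cells. Leaving out 1 library gave 8 to 12 for Panc89 Holoclone and 1 to 7 for Panc89 Paraclone against parental cells; where no construction of the alternative explains a change, the cause was not tested.

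The replicate number fitted as a replicate block gave 22 called members between the parental lines, 17 between the Panc1 clones, 12 between the Panc89 clones and 16 for the difference between lines, and a block within lines gave 3 for Panc89 Paraclone against parental cells. Same-numbered libraries did not deviate together. Over 18 pairs of such libraries, each pair from different groups of a line, the correlation of deviations was −0.318 to 0.190, with 3 over 0.1. The numbers were therefore not used as pairs. One alternative, mitochondrially encoded genes removed, was chosen after seeing the data. The 3 passages of 1 clone a group and the unknown depth limit what low levels can show.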
